A study of Mus musculus with 4 samples.

Results

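The 10 genes described here encode regulators of tissue-specific alternative splicing, Ptbp1, Ptbp2, Khdrbs1, Khdrbs3, Mbnl1, Mbnl2, Celf1, Rbfox2, Elavl1 and Ranbp9. They were taken by name from the splicing regulators of the series, with earlier results of these data known, and are 10 of 37718 gene rows. With them come 108 of the 207562 introns counted and 322 of the 605144 exon segments and splice junctions. RNA was taken from cells of mouse testes at 20 days after birth in 2 samples of Tdrd6+/- mice, which carry 1 functional copy of Tdrd6, and 2 samples of Tdrd6-/- mice, which carry none, each sample being a pool of at least 4 mice. The cells of both genotypes were captured on magnetic beads by human CD4 (hCD4), a surface marker under the control of the endogenous Tdrd6 promoter, and consisted mainly of diplotene spermatocytes, cells late in the first meiotic prophase. Total RNA was depleted of ribosomal RNA before sequencing, so that unspliced transcripts were counted along with spliced ones. Because all animals carried at least 1 disrupted copy, neither group stands for wild type.

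Alternative splicing is steered by RNA-binding proteins that sit near an exon and favour its inclusion or its skipping. PTBP1 binds pyrimidine-rich RNA and mostly represses exons, and its close relative PTBP2 takes over in neurons and in male germ cells. SAM68, made from Khdrbs1, and T-STAR, made from Khdrbs3, are related proteins that bind A- and U-rich sequences, and T-STAR is abundant in testis and brain. Muscleblind proteins (Mbnl) and CELF proteins often push the same exons in opposite directions, as known from heart and muscle. RBFOX2 acts on exons beside its short recognition sequence, ELAVL1 (HuR) binds AU-rich RNA and protects many mRNAs from decay, and RANBP9 is a scaffold protein that has been linked to splicing in male germ cells.

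Several of these genes are themselves spliced in alternative ways, and the exons that the counts bear on are printed first. Ptbp1 and Ptbp2 each hold a coding exon of 34 bases, a length that is not a multiple of 3, so that its skipping shifts the reading frame. Sequences are from GENCODE M21 transcripts on the mm10 build, with the alternative part in capitals. On each side stand 30 bases of coding sequence in lower case. They come from the neighbouring exons or, after the extension of Celf1, from the rest of the same exon. Ptbp1 lies on the plus strand of chromosome 10, its 34-base exon at chr10:79862014-79862047 and an exon of 78 bases at chr10:79860117-79860194. The 34-base exon of Ptbp2 lies on the minus strand at chr3:119724612-119724645 and is exon 10 of 14. A 12-base extension of a Celf1 exon, the ninth of 15 in the transcript used, adds whole codons. It lies on the plus strand at chr2:91006620-91006631.
Ptbp2 34-base exon: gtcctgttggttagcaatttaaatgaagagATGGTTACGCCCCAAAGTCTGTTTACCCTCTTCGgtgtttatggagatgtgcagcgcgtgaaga
Ptbp1 34-base exon: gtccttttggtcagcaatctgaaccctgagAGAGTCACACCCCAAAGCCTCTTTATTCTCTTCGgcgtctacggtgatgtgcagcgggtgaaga
Ptbp1 78-base exon: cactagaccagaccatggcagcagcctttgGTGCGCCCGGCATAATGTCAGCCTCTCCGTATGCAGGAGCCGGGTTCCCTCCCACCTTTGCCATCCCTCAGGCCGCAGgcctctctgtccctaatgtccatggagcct
Celf1 12-base extension: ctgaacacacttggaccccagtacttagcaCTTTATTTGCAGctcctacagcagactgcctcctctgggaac
The 34-base exons of the paralogues were identical at 26 of 34 positions when aligned without gaps.

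Depth was 26454326 to 31388750 gene counts and 9603669 to 13937818 intronic counts per sample. Tdrd6, the targeted gene, had 33220 and 39322 counts in Tdrd6+/- and 359 and 400 in Tdrd6-/-, as the labels state. Of 9 late meiotic markers with a row, such as the synaptonemal complex gene Sycp1, 1 was higher (Sycp1, log2 fold change 0.60, adjusted p = 0.0467, edgeR) and 1 lower (Piwil1, log2 fold change -0.44, adjusted p = 0.0773, edgeR) in Tdrd6-/-. Their summed level was 8530 to 9810 CPM, the count scaled to a library total of 1e6. The other 6 marker lists stood far below this, with summed levels of 4.24 to 10.7 CPM for haploid spermatids, 23.9 to 32.7 for spermatogonia and early meiosis, 45.6 to 56.4 for Sertoli cells, 7.1 to 9.2 for Leydig cells, 4.01 to 5.21 for peritubular and vascular cells and 3.43 to 5.97 for macrophages. The spermatid, spermatogonial and Sertoli sums were higher in both Tdrd6-/- samples than in both Tdrd6+/- samples. Only 2 of the 6 spermatid genes were deep enough for the test, and 1 passed, the acrosomal gene Acrv1 (log2 fold change 0.96, adjusted p = 0.0565, edgeR). None of the 7 spermatogonial and early meiotic genes or of the 7 Sertoli genes passed. No listed marker with a row was at 0 in all samples. Their part in the results below was not tested. In such samples, fewer cells of a type and less RNA per cell cannot be told apart. No label ties a replicate number to a shared day or litter.

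The regulators spanned a wide range of levels, here given as TMM-normalized CPM per kilobase of exon. Ranbp9 stood highest, at 149.5 and 156.8 in Tdrd6+/- and 130.8 and 120.1 in Tdrd6-/-. Its mean was above that of 97.9% of those of the 16555 genes tested that have an exon length. Ptbp2 (86.31 to 110.9) and Khdrbs3 (90.22 to 97.51) followed, and their ranges overlapped. Next came Elavl1 (24.06 to 36.91), Ptbp1 (25.42 to 27.88) and Khdrbs1 (19.93 to 28.58), whose neighbours also overlapped. Celf1 was at 7.334 to 10.38. Rbfox2 (1.895 to 2.681) and Mbnl1 (1.744 to 2.509) overlapped as well, and Mbnl2 was lowest, at 0.6951 to 0.9274, above 26.6% of the genes tested that have an exon length. The relatives with germ-cell or neural roles, Ptbp2 and Khdrbs3, thus stood among the 3 most abundant of the set, and the muscleblind genes among the 3 least abundant. With the length of all annotated exons in place of the matched transcript, Ptbp2 and Khdrbs3 exchanged ranks 2 and 3, Elavl1 fell from rank 4 to rank 6, and Mbnl1 and Mbnl2 exchanged ranks 9 and 10.

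**Figure D1:**
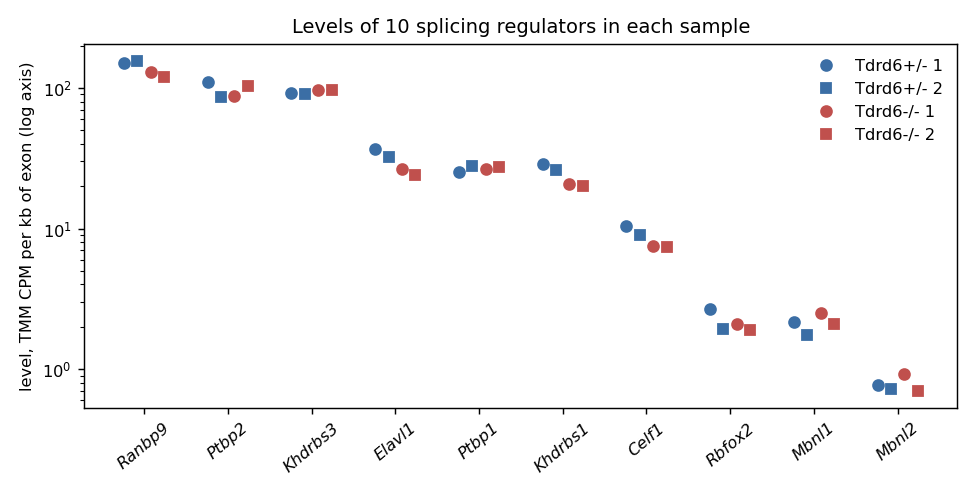
Level of each regulator in each sample, in TMM-normalized CPM per kilobase of exon on a log axis, with Tdrd6+/- samples in blue and Tdrd6-/- samples in red. Ranbp9 lies at 120.1 to 156.8 and Mbnl2 at 0.6951 to 0.9274, and the points of Elavl1, Khdrbs1 and Celf1 are lower in both Tdrd6-/- samples.

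How far each gene changed with the genotype was asked of the gene counts. Elavl1 and Khdrbs1 were lower in Tdrd6-/-, 2 of the 10, and none was higher. Of all genes tested, 4.8% were called at a false discovery rate of 0.1, and 3.78% were called lower. Elavl1 had 5555 and 5149 counts in Tdrd6+/- and 4852 and 4425 in Tdrd6-/-, or 212 and 184.7 against 153.3 and 138.2 CPM. The groups did not overlap, and the log2 fold change was -0.44 (SE 0.13, adjusted p = 0.0738, edgeR). Khdrbs1 had 183.4 and 166.5 CPM in Tdrd6+/- and 133 and 127.9 in Tdrd6-/-. It too was lower in both Tdrd6-/- samples, with a log2 fold change of -0.42 (SE 0.13, adjusted p = 0.0817, edgeR). Both calls were lost in the edgeR fit when Tdrd6+/- replicate 1 was left out (adjusted p = 0.302 for Elavl1 and 0.258 for Khdrbs1), when Tdrd6-/- replicate 1 was left out (0.170 and 0.283) or Tdrd6-/- replicate 2 (0.713 and 0.646), and without a filter on low counts (0.369 and 0.352). With RLE factors Khdrbs1 was just past the limit (adjusted p = 0.1003, edgeR).

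Celf1 and Ranbp9 were also lower but did not pass. Celf1 had 87.69 and 75.62 CPM in Tdrd6+/- and 63.23 and 61.94 in Tdrd6-/-, a log2 difference of -0.38 (SE 0.14, adjusted p = 0.167, edgeR). For Ranbp9 the values were 503.8 and 528.4 against 441.1 and 405 CPM, a log2 difference of -0.29 (SE 0.13, adjusted p = 0.301, edgeR). In both genes the groups did not overlap. Ptbp1 had 120.5 and 132.1 CPM in Tdrd6+/- and 125.4 and 130.4 in Tdrd6-/-, a log2 difference of 0.02 (SE 0.13). Ptbp2 had 373 and 290.3 against 293.3 and 345.2 CPM, a log2 difference of -0.05 (SE 0.14), so that replicates of a genotype were further apart than the genotypes. Khdrbs3 had 172.8 and 170.2 against 184 and 182.7 CPM, a log2 difference of 0.10 (SE 0.13). The low genes were less precise, with log2 differences of -0.21 (SE 0.19) for Rbfox2, 0.25 (SE 0.21) for Mbnl1 and 0.12 (SE 0.22) for Mbnl2. Their counts were 440 to 572, 275 to 449 and 242 to 352 per sample. Adjusted p for these 6 genes was 0.675 to 0.976 (edgeR). Across the 10 regulators the groups did not overlap in 5, of which Khdrbs3 was higher in Tdrd6-/- and the other 4 lower. Over all genes tested this held for 43.5%, with 20.1% higher and 23.4% lower. Their median log2 difference was -0.13, against 0.01 over all genes tested.

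Whether unspliced RNA of the same genes moved alike was read from the intronic counts, summed per gene and scaled by their own totals. None of the 10 passed the test (edgeR), against 1.42% of the 15025 genes tested (0.173% higher and 1.25% lower). With DESeq2 1 of the 10 did, Khdrbs3 (log2 fold change -0.60, adjusted p = 0.067). In edgeR 3 were at an unadjusted p under 0.05, a limit for which the share of all genes was not computed. The 3 were Khdrbs3, Ptbp2 and Mbnl1. Intronic counts of Khdrbs3 were 4971 and 3815 in Tdrd6+/- and 3256 and 2383 in Tdrd6-/-, a log2 difference of -0.58 (SE 0.21, adjusted p = 0.18, edgeR). Those of Ptbp2 were 10500 and 6938 against 6680 and 4907, a log2 difference of -0.53 (SE 0.22, adjusted p = 0.273, edgeR). In both genes the gene counts differed by a log2 value of 0.10 or less. Intronic CPM did not overlap between the groups in 7 of the 10, lower in Tdrd6-/- for Ranbp9, Ptbp2, Khdrbs3, Elavl1 and Khdrbs1 and higher for Ptbp1 and Mbnl1, against 43.5% of all genes tested at introns. Mbnl1 had 1827 and 1978 intronic counts in Tdrd6+/- and 3492 and 1820 in Tdrd6-/-, a log2 difference of 0.50 (SE 0.21, adjusted p = 0.275, edgeR). In CPM these were 144.4 and 163.3 against 257.7 and 177.8, with Tdrd6-/- replicate 1 far above the other 3 samples. Scaled by the gene counts instead, the log2 differences were -0.88 for Khdrbs3, -0.83 for Ptbp2 and 0.25 for Mbnl1, those of Ranbp9, Rbfox2, Elavl1, Khdrbs1 and Celf1 were -0.59 to -0.41, and those of Ptbp1 and Mbnl2 were -0.06, none of them called.

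**Figure D2:**
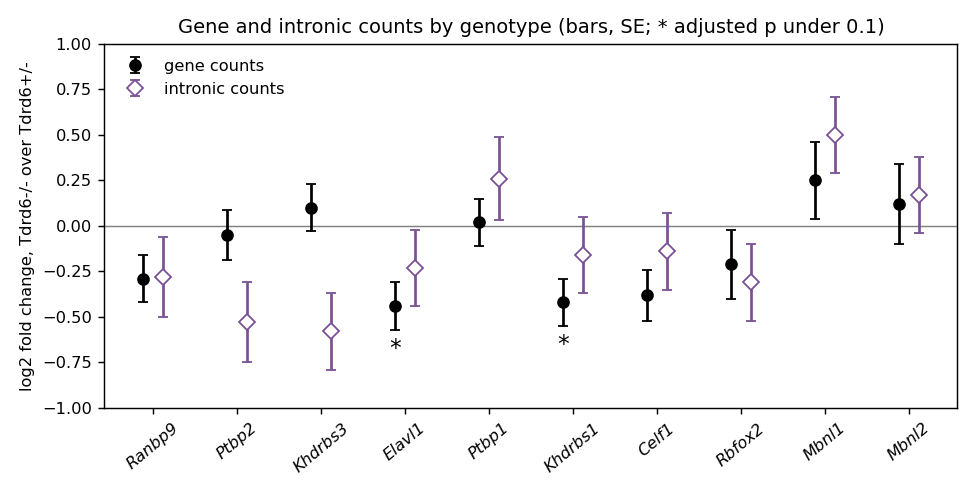
Log2 fold change of Tdrd6-/- over Tdrd6+/- for each regulator, with filled circles for gene counts, open diamonds for intronic counts and bars for the SE. Stars mark Elavl1 (-0.44) and Khdrbs1 (-0.42), and for Ptbp2 and Khdrbs3 the intronic points (-0.53 and -0.58) lie below the gene points (-0.05 and 0.10).

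Tdrd6-/- replicate 1 also stood apart in the introns of Mbnl2, which had 1564 and 1828 counts in Tdrd6+/- and 2738 and 1090 in Tdrd6-/-. Introns of Celf2, a relative of Celf1, were likewise highest in that sample, with 10659 and 12100 against 18744 and 8037 counts. So were those of Rbfox1, the neural relative of Rbfox2, with 549 and 576 against 1090 and 448. Of the Sertoli list, none of 7 genes passed the test, and its summed intronic level was 343, 392, 560 and 343 CPM in the same sample order. The spermatogonial and early meiotic list had the same high sample, with 96.7, 119, 154 and 95.9 intronic CPM. Wt1, a Sertoli transcription factor named after its values were seen, had 3073, 3312, 5397 and 2440 intronic counts. In CPM these were 242.9, 273.4, 398.2 and 238.4, which is most of the Sertoli sum given above. What these counts share was not tested. Without Tdrd6-/- replicate 1 the log2 difference of the intronic counts was 0.20 for Mbnl1 and -0.37 for Mbnl2.

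The share of intronic counts in the sum of intronic and gene counts differed widely among the regulators. It was lowest for Ptbp1, at 9.51% to 11%, and highest for Mbnl1 (82.7% to 88.6%), Mbnl2 (80.3% to 88.6%) and Rbfox2 (70.7% to 80.4%), the 3 genes of lowest level and, with Khdrbs3, of the longest span. In Ptbp2 it was 51.8% and 46.2% in Tdrd6+/- and 41.8% and 30.7% in Tdrd6-/-, means of 49% ± 3.98 and 36.3% ± 7.86 (SD, n = 2). Khdrbs3 had 52.3% and 44.6% against 35.9% and 28.9%, means of 48.4% ± 5.49 and 32.4% ± 4.9 (SD, n = 2). In Rbfox2 it was 80.4% and 79.9% against 79.0% and 70.7%. In these 3 of the 10 both Tdrd6-/- samples were lower than both Tdrd6+/- samples, for which the two-sided exact permutation test gave p = 0.33, the smallest that 2 against 2 can give. The same order held for 38% of 13030 genes, the opposite one for 4.82% and either for 42.8%. Over all counts of a library the intronic share was 34.5% and 29.5% in Tdrd6+/- and 29.8% and 23.4% in Tdrd6-/-.

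Introns were then compared within their gene, so that a change of the whole gene cancels. Usage is the count of an intron against the sum of the gene's other introns. Of the 108 introns, 59 were deep enough for the test and 3 were called, all higher in Tdrd6-/- (likelihood ratio test in DESeq2). Of all introns tested, 1.94% were called, 0.716% higher and 1.22% lower. The 3 were the first and the ninth intron of Ptbp2 and the third of Khdrbs3.

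The first intron of Ptbp2 (chr3:119781535-119783201, 1667 bases, minus strand) had 227 and 168 counts in Tdrd6+/- and 250 and 240 in Tdrd6-/-. It held 2.16% and 2.42% of the gene's intronic counts in Tdrd6+/- and 3.74% and 4.89% in Tdrd6-/-, so that the groups did not overlap, and its usage was higher by a log2 value of 0.93 (SE 0.21, adjusted p = 0.00494, DESeq2). The ninth intron (chr3:119724646-119726065, 1420 bases) lies directly before the 34-base exon printed above. Its counts were 199 and 153 in Tdrd6+/- and 214 and 206 in Tdrd6-/-, its share of the intronic counts 1.9% and 2.21% against 3.2% and 4.2%, and its usage was higher by 0.87 (SE 0.22, adjusted p = 0.0158, DESeq2). In Khdrbs3 the third intron (chr15:69013475-69017327, 3853 bases, plus strand) had 151 and 139 counts against 164 and 151. Its share was 3.04% and 3.64% in Tdrd6+/- and 5.04% and 6.34% in Tdrd6-/-, a usage higher by 0.80 (SE 0.23, adjusted p = 0.0527, DESeq2). None of the 3 was called by the edgeR usage test (log2 values 0.77 to 0.92, adjusted p = 1), without Tdrd6+/- replicate 1 or without Tdrd6-/- replicate 2, and that of Khdrbs3 was also not called without Tdrd6+/- replicate 2 (adjusted p = 0.166, DESeq2).

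The other side of these shares lay in the long introns of the same genes. The eighth intron of Ptbp2, of 14.1 kb, held the highest share of the gene's intronic counts, 46.2% to 50.8%, with 5333 and 3277 in Tdrd6+/- and 3254 and 2269 in Tdrd6-/-. Its second intron, of 19.7 kb, had 1338 and 962 counts against 693 and 462, a usage difference of -0.48 (SE 0.16, adjusted p = 0.119, DESeq2). The first intron of Khdrbs3, of 66.2 kb, had 1761 and 1249 counts against 1024 and 675, a usage difference of -0.28 (SE 0.16, adjusted p = 0.576, DESeq2). Introns of 5 kb or more held 88% and 87.4% of the intronic counts of Ptbp2 in Tdrd6+/- and 83.4% and 79.9% in Tdrd6-/-. In Khdrbs3 the values were 91.7% and 89.5% against 86.7% and 81.9%. Per kilobase, the first intron of Ptbp2 was at 10.8 and 8.32 CPM in Tdrd6+/- and 11.1 and 14.1 in Tdrd6-/-, whereas its second was at 5.36 and 4.03 against 2.59 and 2.29. The ninth intron of Ptbp2 was at 11.1 and 8.9 against 11.1 and 14.2. In Khdrbs3 the third intron was at 3.1 and 2.98 against 3.14 and 3.83, and the first at 2.1 and 1.56 against 1.14 and 0.996. A higher usage thus did not always go with a clearly higher level of the intron itself.

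**Figure D3:**
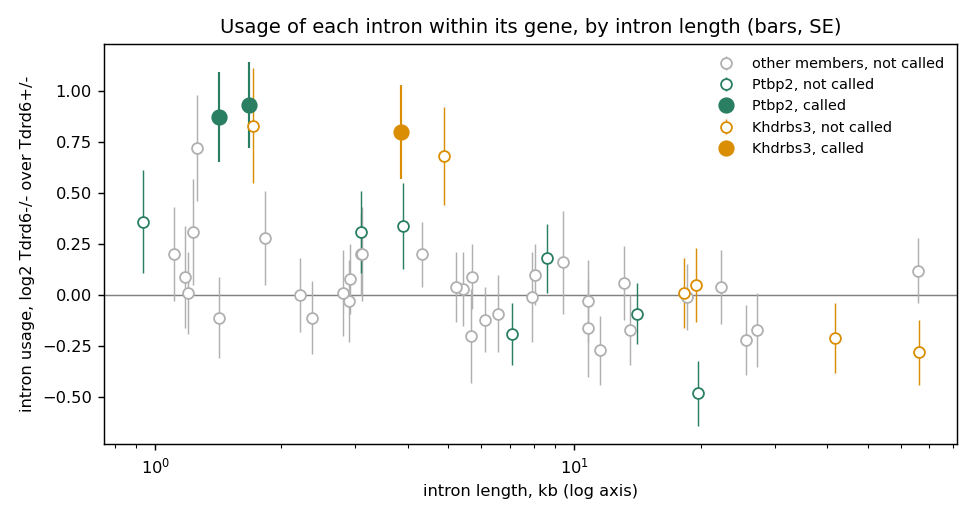
Usage of each tested intron with a position, as the log2 value of Tdrd6-/- over Tdrd6+/- with its SE, against intron length in kb on a log axis. The 3 called introns, filled, are 1.42 to 3.85 kb long and lie at 0.80 to 0.93, and the second intron of Ptbp2, of 19.7 kb, lies at -0.48.

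The same direction by length was present over all introns with a position. Of those under 5 kb, 86 were called higher and 18 lower in Tdrd6-/-, with a median log2 difference of 0.07 over 9764 introns. Of those of 5 kb or more, 32 were called higher and 213 lower, with a median of -0.08 over 8325. The 5 tested introns of Ptbp2 under 5 kb were all above 0, with a median of 0.36, and 3 of its 4 longer ones were below. Khdrbs3 had 3 tested introns under 5 kb, all above 0, with a median of 0.80, and 4 longer ones with a median of -0.10. In the other placed genes no intron was called. The smallest p was in the second intron of Khdrbs1 (1263 bases, 79 and 95 against 132 and 109 counts, log2 difference 0.72, SE 0.26, adjusted p = 0.185, DESeq2). For Elavl1, Ranbp9, Mbnl1 and Mbnl2 the intron with the smallest p differed by 0.20, -0.22, -0.17 and -0.24, with adjusted p of 0.731 to 0.839 (DESeq2). Those of Ptbp1 (64, 35, 39 and 27 counts), Celf1 (22, 13, 34 and 27) and Rbfox2 (32, 18, 42 and 22) were below the mean count at which the test was adjusted.

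Exon segments and junctions were compared with the rest of their gene in the same way. Of 322 features of the 10 genes, 195 were deep enough, namely 121 exon segments, 73 annotated junctions and 1 unannotated junction. None was called, in DESeq2 or by the edgeR usage test. Fitted were 177 exon segments, 109 annotated junctions and 10 unannotated ones, of which 12 were at an unadjusted p under 0.05 (DESeq2). The share of all features at that limit was not computed. Of all features tested, 0.221% were called, 0.148% higher and 0.0731% lower. Closest was the first exon of Ranbp9 (chr13:43480412-43481282, minus strand), with 590 and 681 counts in Tdrd6+/- and 796 and 843 in Tdrd6-/-. It held 4.47% and 4.62% of the gene's counts against 5.7% and 6.5%, a usage difference of 0.45 (SE 0.12, adjusted p = 0.113, DESeq2). The junction from it to the second exon had 348 and 382 counts against 493 and 455 (log2 difference 0.44, SE 0.13, adjusted p = 0.197, DESeq2), and the second exon itself differed by 0.36 (SE 0.11). Along Ranbp9 the differences fell towards the 3' end, to -0.14 (SE 0.11) in the last exon.

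The 2 regulators that were lower, Elavl1 and Khdrbs1, had a like order only in part. The last exon of Elavl1, which holds most of its 3' untranslated region, had 80% and 76.1% of the gene's counts in Tdrd6+/- and 74.5% and 73% in Tdrd6-/-. Its usage differed by -0.34 (SE 0.12, adjusted p = 0.494, DESeq2), and it was called without Tdrd6+/- replicate 2. The first exon of Elavl1 held 2.61% and 3.01% against 3.09% and 4.7%. From the second exon to the one before the last, Elavl1 differed by 0.28, 0.13, 0.20 and 0.26 (SE 0.13 to 0.14). These values did not fall steadily, and the drop lay in the last exon. In Khdrbs1 the first long segment, of 518 bases, differed by 0.37 (SE 0.14, adjusted p = 0.662, DESeq2), with 9.47% and 11% of the gene's counts in Tdrd6+/- and 12.1% and 13.5% in Tdrd6-/-. Its long terminal segment, of 2175 bases, held 39.9% and 34.9% against 33% and 33.9%. Khdrbs1 can also be spliced past that segment to distal last exons, and this junction had 37 and 37 counts in Tdrd6+/- and 27 and 32 in Tdrd6-/-, beside 213 and 282 against 216 and 190 for the junction before it. The distal segments of 60, 81, 235 and 662 bases differed by -0.24, -0.09, -0.06 and -0.02 (SE 0.23, 0.20, 0.19 and 0.22). They did not lie below the segment of 2175 bases (-0.25, SE 0.12). Between it and them lies a segment of 370 bases that differed by -0.31 (SE 0.33), with 76 and 58 counts in Tdrd6+/- and 60 and 36 in Tdrd6-/-. The values thus did not keep falling up to the 3' end.

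**Figure D4:**
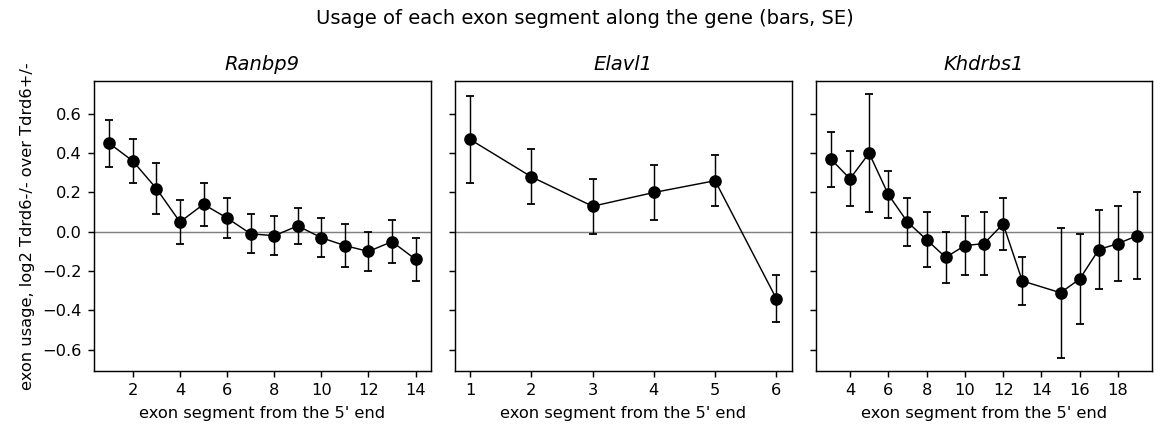
Usage of each tested exon segment along Ranbp9, Elavl1 and Khdrbs1, numbered from the 5' end, as the log2 value of Tdrd6-/- over Tdrd6+/- with its SE. The first segment shown lies at 0.45, 0.47 and 0.37, and the last exon of Elavl1 lies at -0.34.

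A ratio of first to last exon was taken in genes with 1 transcript model to place these values. Over 1341 genes its median log2 value was -2.05 and -2.03 for the Tdrd6+/- pools against -1.94 and -1.81 for the Tdrd6-/- pools, with a median difference of 0.16. In Ranbp9 it was -2.99 and -2.78 against -2.42 and -2.32. In Elavl1 it was -4.94 and -4.66 against -4.59 and -3.96, and in Ptbp2 -3.79 and -3.65 against -3.52 and -3.33. Khdrbs3 had -2.41 and -2.04 against -2.05 and -1.97. In Mbnl1, whose first exon had 4 to 12 counts, it was -4.99 and -5.04 against -4.12 and -5.04. Both Tdrd6-/- samples were above both Tdrd6+/- samples in Ranbp9, Elavl1 and Ptbp2, 3 of the 5 regulators with such a ratio, an order that held for 39.6% of the 1341 genes (the opposite one for 6.19%).

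In the remaining genes the smallest p belonged to small differences or shallow features. Among exon segments these were a segment of 2 bases near the end of Ptbp1 (log2 difference 0.34, SE 0.18), the second exon of Ptbp2 (0.22, SE 0.12), the last exon of Khdrbs3 (-0.17, SE 0.12), the second exon of Mbnl1 (-0.43, SE 0.28) and a segment of 144 bases in Celf1 (0.28, SE 0.17), each with an adjusted p of 1 (DESeq2). Among junctions they were the last of Ptbp1 (0.32, SE 0.18), the second of Ptbp2 (0.29, SE 0.13, 422 and 347 against 501 and 557 counts), the last of Khdrbs3 (0.12, SE 0.14), one of Celf1 (0.45, SE 0.25) and the first of Elavl1 (0.52, SE 0.25). Junctions of Mbnl1, Mbnl2 and Rbfox2 were all below the adjusted range, and those with the smallest p had 2 to 11, 1 to 10 and 6 to 18 counts. In Khdrbs1 it was the junction to the most distal exon, with 50 and 54 counts against 20 and 40. Segments of 12 to 27 counts in Mbnl2 and of 8 to 22 counts in Rbfox2 stood closest in these 2 genes, which have no positions here. Unannotated junctions were listed for Ptbp1, Ptbp2, Khdrbs3, Elavl1 and Ranbp9, 10 in all. The most counted, in Ptbp2, had 212, 125, 157 and 200 counts (log2 difference -0.08), and those with the smallest p had 16 to 25 counts in Ptbp1, 35 to 61 in Ptbp2, 8 to 15 in Khdrbs3, 5 to 21 in Elavl1 and 9 to 22 in Ranbp9.

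Junction counts gave the inclusion of the alternative exons printed above, as the mean count of the junctions into and out of an exon over the sum of that mean and the skipping junction. The 34-base exon of Ptbp1 was included throughout. Its junctions had 107 and 98, 152 and 147, 160 and 104, and 165 and 124 counts in the 4 samples, and the skipping junction had 1 count in all, in Tdrd6-/- replicate 2. The 34-base exon of Ptbp2 had no annotated skipping junction, so no inclusion could be computed. The junction before it had 231 and 202 counts in Tdrd6+/- and 260 and 341 in Tdrd6-/-, and the junction after it 308 and 314 against 340 and 464. Both junctions had more raw counts in both Tdrd6-/- samples, but these libraries were also deeper. They held 30486157 and 31388750 gene counts, against 26454326 and 29253182 in Tdrd6+/-. Against the rest of the gene the junctions differed by 0.29 (SE 0.16) and 0.18 (SE 0.15), and neither was called.

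The 78-base exon of Ptbp1 was included in part. Inclusion was 43.5% and 42.9% in Tdrd6+/- and 48.7% and 50.1% in Tdrd6-/-, means of 43.2% ± 0.439 and 49.4% ± 1.02 (SD, n = 2). For the 12-base extension of Celf1 it was 72% and 75.8% against 69.1% and 67.1%, means of 73.9% ± 2.7 and 68.1% ± 1.41 (SD, n = 2). In these 2 of the 4 exons with an inclusion value the groups did not overlap, with p = 0.33 in the two-sided exact permutation test, the smallest that 2 against 2 can give. None of their junctions was called. The skipping junction of the Celf1 extension, with 21 to 25 counts, was below the mean count at which p was adjusted, so DESeq2 could not call it. The share of other exons with such an order was not computed. A 3-base extension of another Celf1 exon, the tenth of 13 in a different transcript, was included in 36.5% and 37.9% against 41.9% and 29% of the counts. Here the groups overlapped. These shares rest on 21 to 165 counts per junction, apart from the skipping junction of the 34-base exon.

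**Figure D5:**
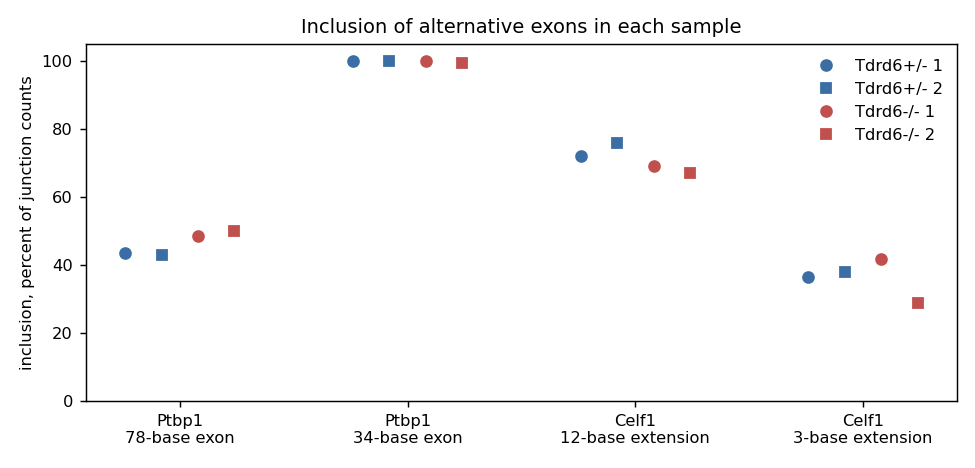
Inclusion of alternative exons of Ptbp1 and Celf1 in each sample, in percent of junction counts, with Tdrd6+/- samples in blue and Tdrd6-/- samples in red. The 34-base exon of Ptbp1 lies at 99.3% to 100%, its 78-base exon at 42.9% to 50.1%, and the 12-base extension of Celf1 at 67.1% to 75.8%.

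Paralogues were set against each other within a sample, which cancels the depth. Ptbp2 exceeded Ptbp1 by a ratio of 4.36 and 3.1 in Tdrd6+/- and 3.3 and 3.73 in Tdrd6-/- per kilobase (two-sided exact permutation p = 1). With all annotated exons as the length the ratio was 1.14 to 1.6, and from the median junction count, which uses no length, it was 1.94 to 2.92, so that Ptbp2 was the higher one by each measure. Khdrbs1 was lower than Khdrbs3, and the ratio was 0.312 and 0.288 in Tdrd6+/- and 0.212 and 0.206 in Tdrd6-/-, means of 0.3 ± 0.0174 and 0.209 ± 0.00475 (SD, n = 2). The groups did not overlap (two-sided exact permutation p = 0.33, the smallest possible), and the junction medians gave 0.548 and 0.532 against 0.397 and 0.366. In raw intronic counts, not scaled for intron length, the order of the genotypes was opposite. There the Khdrbs1 to Khdrbs3 ratio was 0.634 and 0.757 in Tdrd6+/- and 0.942 and 0.905 in Tdrd6-/-.

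Mbnl1 and Mbnl2 could not be ordered. Per kilobase their ratio was 2.79 and 2.4 in Tdrd6+/- and 2.71 and 3.03 in Tdrd6-/-, but it was 0.725 to 0.914 with all annotated exons and 0.647 to 1.07 from the junctions, whose medians were 5.5 to 11.5 counts. Celf1 exceeded Celf2, a relative with broad roles in muscle and brain, by 10.6 and 9.54 in Tdrd6+/- and 6.35 and 10.4 in Tdrd6-/- per kilobase (two-sided exact permutation p = 0.67). Celf2 had more raw intronic counts than Celf1, the ratio of Celf1 to Celf2 being 0.114 to 0.193. These counts were not scaled for intron length, so they do not order the 2 genes.

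The other relatives of the 10 were mostly rare. Ptbp3, which also represses exons, had a level of 9.525 to 12.49 CPM per kilobase and Ranbp10, the relative of Ranbp9, 13.92 to 19.71, with log2 differences of -0.30 and -0.34 that did not pass the test. Celf3, Celf4, Celf5 and Celf6 were at 0.234 to 1.292, and Mbnl3 and the neural relatives of Elavl1, Elavl2 and Elavl3, at 0.1065 to 0.2678. Khdrbs2, Rbfox1, Rbfox3 and Elavl4 had 0 to 8 counts per sample and were not tested. Of 31 further splicing regulators listed, these included, 24 were tested, with a median log2 difference of -0.07. Of the 24, 2 passed, both lower in Tdrd6-/-, against 4.8% of all genes tested called and 3.78% called lower. The 2 were Nova1, a neuronal splicing factor, with 174 and 125 counts in Tdrd6+/- and 86 and 70 in Tdrd6-/- (log2 fold change -1.18, SE 0.28, adjusted p = 0.0186, edgeR), and Tial1, which binds U-rich RNA, with 3045 and 2970 against 2296 and 1890 (log2 fold change -0.76, SE 0.14, adjusted p = 0.00286, edgeR). In intronic counts 2 of 26 passed, both lower, against 1.42% of all genes tested at introns called and 1.25% called lower. They were Celf4, with 1263 and 692 against 549 and 361 counts (log2 fold change -1.05, SE 0.22, adjusted p = 0.00423, edgeR), and Nova1 (log2 fold change -0.91, SE 0.24, adjusted p = 0.0342, edgeR). In edgeR, the call of Nova1 was lost without Tdrd6+/- replicate 1 (adjusted p = 0.2375) or Tdrd6-/- replicate 2 (0.1653), that of Tial1 without Tdrd6-/- replicate 2 (0.1608), and the intronic calls of Celf4 and Nova1 without Tdrd6+/- replicate 1 (both 0.9997). Both gene calls were also lost without a filter on low counts (0.2504 and 0.1487), both intronic calls with the factors of the gene counts (both 0.4682), and that of Nova1 with the replicate block (0.1687).

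Some counts may hold reads of other genes. Ptbp1 transcripts share stretches of 151 to 334 bases, at 98% identity or more, with Plppr3, Gm17134, E130317F20Rik and Gm4900, of which the first 3 overlap it on the opposite strand. Elavl1 overlaps Ccl25 and Ranbp9 overlaps Nol7 in the same way, by 181 and 266 bases. The sources do not say whether counting used the strand, so these ends remain uncertain. Small genes annotated within the spans of Ptbp2, Khdrbs3, Mbnl1, Mbnl2, Rbfox2 and Ranbp9 may add to their intronic or exonic counts. Whether these genes lie in introns or exons was not determined.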

How the data were processed

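RNA of hCD4+ testis cells was sequenced in 2 Tdrd6+/- and 2 Tdrd6-/- samples, grouped by their labels. The authors aligned the fragments to mm10 with GSNAP and an Ensembl annotation and deposited counts, not normalized, of genes, exon segments, junctions and introns (bcl2fastq 1.8.4 per the submitters' processing notes). The counting program, its filters and its use of strand are not given in the sources used here. The files give no coordinates.

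The quasi-likelihood test of edgeR 4.0.16 in R 4.3.3 was run on genes kept by filterByExpr, with TMM factors, Benjamini-Hochberg adjustment over all genes and a false discovery rate of 0.1, and likewise on intronic counts summed per gene. For introns and for exons and junctions, the models of DEXSeq and JunctionSeq, which were not installed, were fitted to all features with at least 10 counts in DESeq2 1.42.0 by a likelihood ratio test with independent filtering. A feature was set against the rest of its gene. Exon and junction rows of 940 merged genes did not enter. Scripts were tested on simulated data. Single values were compared by exact permutation, and p-values measure the spread between pools.

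Features were placed on mm10 by order on GENCODE M21, in 8 of the 10 genes whose numbers of segments, junctions and introns matched, with all transcripts for Ptbp1, Khdrbs1 and Celf1 and with 1 transcript for the others. Mbnl2 and Rbfox2 could not be placed. Levels are CPM per kilobase of that model, and of all annotated exons for the unplaced. All 10 genes were named, with each called intron, exon or junction, or else the one of smallest p per kind. Of the other regulators, relatives of the members and up to 4 called genes per direction were named. The members and lists were chosen with earlier results of these data known. Replicate numbers were checked for pairing by the correlation of the replicate differences of both genotypes, which was -0.103 for gene counts and -0.0812 for intronic counts. Alternatives were DESeq2, RLE factors, other filters, edgeR's usage test, a rate of 0.05, other lengths, the replicate block and leaving out each sample.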

Additional observations from a re-analysis of the deposited data

How the results depend on the processing

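With 2 pools per genotype, calls moved with the samples used. Leaving out 1 sample at a time gave 257 (without Tdrd6-/- replicate 2) to 1064 (without Tdrd6+/- replicate 2) gene calls against 794, of which 0 to 3 were among the 10 regulators. Intronic calls were 4 (without Tdrd6+/- replicate 1) to 951 (without Tdrd6-/- replicate 1) against 214, with 0 to 1 among the regulators. Intron usage calls were 4 (without Tdrd6+/- replicate 1) to 1175 (without Tdrd6-/- replicate 1) against 561, with 0 to 5 among the regulators. Exon and junction calls were 51 (without Tdrd6-/- replicate 2) to 763 (without Tdrd6+/- replicate 2) against 327, with 0 to 1 among the regulators. In these fits a lone sample is assumed to vary like the other group.

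Without a filter on low counts 75 genes were called and 0 regulators. At a false discovery rate of 0.05, 0 regulators and 327 introns were called, and with RLE factors 1 regulator. DESeq2 called 396 genes on intronic counts, 1 of them a regulator, and the size factors of the gene counts left 3. The edgeR usage test called 2 introns, 0 in the regulators, and 72 exons and junctions. The causes were not tested. Scaled by the gene counts, the intronic log2 differences of the 10 regulators were -0.88 to 0.25, lower than by their own totals in each, and those of Ptbp1 and Mbnl2 turned to -0.06.

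The replicate numbers share no stated day or litter. With a replicate block, 1046 genes, 189 genes by intronic counts, 881 introns (4 in the regulators) and 306 exons and junctions were called, and the unannotated junction of Khdrbs3 was at -0.01. With the crossed pairing, added after the data were seen, 1175 genes and 82 genes by intronic counts were called.

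Directions that turned when 1 sample was left out were those of the gene counts of Ptbp1 (log2 -0.04 to 0.09), Ptbp2 (-0.22 to 0.15), Mbnl2 (-0.11 to 0.32), Rbfox2 (-0.42 to 0.05) and Celf4 (-0.72 to 0.21), and of the intronic counts of Mbnl2 (-0.37 to 0.55) and Celf1 (-0.35 to 0.03). The same held for usage of the Mbnl2 intron of smallest p (-0.58 to 0.0) and of unannotated junctions of Ptbp1 (-0.09 to 0.28) and Khdrbs3 (-0.5 to 0.4), and for the log2 change of the ratios Ptbp2 to Ptbp1 (-0.31 to 0.18) and Celf1 to Celf2 (-0.66 to 0.05). For the intronic share, in percentage points, it held for Ptbp1 (-1.26 to 0.248), Khdrbs1 (-4.49 to 3.18), Mbnl1 (-3.79 to 2.12), Mbnl2 (-7.11 to 1.18), Celf1 (-7.89 to 5.31) and Elavl1 (-3.74 to 1.1). Depth limits Mbnl1, Mbnl2 and Rbfox2, whose junctions were all below the mean count at which p was adjusted in DESeq2.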
